A study of Homo sapiens with 60 samples.

Results

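The circadian clock genes described here are PER1, PER2, PER3, CRY1, CRY2, NR1D1, NR1D2, DBP, BMAL1 (listed as ARNTL in the older annotation) and CLOCK. They were chosen by name, and each matched 1 row of the 60675 genes in the table, so the set holds 10 of 60675 genes. All 10 had enough counts to be tested, among 17919 genes tested in all. Their RNA was measured in SW1783, a human astrocytoma cell line, harvested after 24 h of treatment.

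The 60 libraries fell into 22 groups. The vehicle group (3 libraries) received DMSO, for which the labels of the samples state 0.1% and the text of the series states 2%. The labels give no DMSO content for the other groups. The 3 drug groups (3 libraries each) received wortmannin, LY294002 or thioridazine at 10 µM. Wortmannin and LY294002 inhibit PI3-kinase, and thioridazine is a phenothiazine antipsychotic. The other 18 groups received a hot-water extract of Poria Cocos (poria), Atractylodis Rhizoma (atractylodes), Glycyrrhizae Radix (licorice), Panax Ginseng (ginseng), Angelicae Gigantis Radix (angelica) or Paeoniae Radix (peony). By the labels of the samples, the high, medium and low doses were 500, 100 and 20 µg/mL for all 6 extracts. The text of the series adds that an extract with an IC20 below the high dose was used at its IC20 and at dilutions of it, so the doses of some groups may have been lower than labelled. Groups of angelica and peony held 2 libraries and all others held 3. All groups share the one cell line, and nothing in the labels says that the libraries of a group came from separate cultures, so p-values measure the spread between libraries, which may be technical. The labels give 1 harvest time and no step that synchronises the cells, so phase and amplitude of a rhythm were not measured.

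The circadian clock is a feedback loop of transcription found in most cell types, astrocytes among them. The proteins BMAL1 and CLOCK pair and bind E-box sequences, which drives the genes of the PER and CRY repressors, of the nuclear receptors NR1D1 and NR1D2 (REV-ERBα and REV-ERBβ) and of DBP. PER and CRY proteins then inhibit the BMAL1 and CLOCK pair, NR1D1 and NR1D2 repress the BMAL1 gene, and DBP activates genes through D-box sequences, PER genes among them.

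In the GENCODE 29 annotation of GRCh38, PER1 lies on the minus strand of chromosome 17 from 8140472 to 8156506, PER2 on the minus strand of chromosome 2 from 238244038 to 238290102, and PER3 on the plus strand of chromosome 1 from 7784320 to 7845177. CRY1 lies on the minus strand of chromosome 12 from 106991364 to 107093829, and CRY2 on the plus strand of chromosome 11 from 45847118 to 45883248. BMAL1 is also on chromosome 11, on the plus strand from 13276652 to 13387266, and CLOCK is on the minus strand of chromosome 4 from 55427903 to 55547138. NR1D1 lies on the minus strand of chromosome 17 from 40092787 to 40100725, NR1D2 on the plus strand of chromosome 3 from 23945260 to 23980618, and DBP on the minus strand of chromosome 19 from 48630030 to 48637438.

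DBP acts through the D-box, so the promoter windows of the 3 members that carry those letters are shown with DBP's own. Each window runs from 250 bases before to 50 bases after a RefSeq start (GRCh38.p14), and is written 5′ to 3′ on the gene's own strand. Capitals mark the E-prime box (CACGTT), the D-box (TTATGTAA or TTACGTAA) and the E-box (CACGTG), on either strand.
PER2, chr2:238288561-238288860, minus strand: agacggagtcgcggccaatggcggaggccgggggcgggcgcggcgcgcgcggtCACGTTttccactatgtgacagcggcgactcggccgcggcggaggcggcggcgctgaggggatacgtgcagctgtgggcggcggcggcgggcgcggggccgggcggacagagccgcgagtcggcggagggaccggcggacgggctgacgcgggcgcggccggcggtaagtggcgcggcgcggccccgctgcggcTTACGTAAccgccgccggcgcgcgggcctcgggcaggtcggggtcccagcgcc
PER3, chr1:7784041-7784340, plus strand: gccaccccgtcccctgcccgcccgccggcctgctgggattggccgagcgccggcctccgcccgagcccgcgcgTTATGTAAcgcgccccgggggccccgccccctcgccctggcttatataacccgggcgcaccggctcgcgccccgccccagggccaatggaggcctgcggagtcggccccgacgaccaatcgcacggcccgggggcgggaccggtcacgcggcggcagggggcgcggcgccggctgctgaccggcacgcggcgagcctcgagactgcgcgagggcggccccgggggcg
NR1D2, second start, chr3:23945871-23946170, plus strand: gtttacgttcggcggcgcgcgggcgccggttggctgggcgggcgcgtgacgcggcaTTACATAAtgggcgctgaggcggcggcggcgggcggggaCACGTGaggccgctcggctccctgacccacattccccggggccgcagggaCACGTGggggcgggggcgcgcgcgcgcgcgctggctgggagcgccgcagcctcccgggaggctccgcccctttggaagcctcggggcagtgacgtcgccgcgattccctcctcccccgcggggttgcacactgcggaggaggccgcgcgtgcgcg
DBP, chr19:48637330-48637629, minus strand: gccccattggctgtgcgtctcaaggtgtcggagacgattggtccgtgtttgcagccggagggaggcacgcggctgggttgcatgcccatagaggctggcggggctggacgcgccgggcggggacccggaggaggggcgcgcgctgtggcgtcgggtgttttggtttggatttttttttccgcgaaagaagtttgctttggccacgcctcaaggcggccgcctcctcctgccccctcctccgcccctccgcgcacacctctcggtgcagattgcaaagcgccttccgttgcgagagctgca
The D-box was found in windows of 3 members, PER2, PER3 and NR1D2, and in 1.01% of 35116 windows. These 35116 leave out the windows of a chromosome that holds none of the members, and are meant by all windows below. An E-prime box was found in 5 of the 15 (PER2, CRY1, CRY2, NR1D1 and CLOCK) and in 5.34% of all windows. An E-box stood in 2 of the 15, once for PER1 and at 2 places for NR1D2, and in 7.26% of all windows. The REV-ERB and ROR core AGGTCA stood in 4 of the 15, from 3 members (BMAL1, PER1 and CRY2), and in 13.8% of all windows. The cAMP response element TGACGTCA stood in no member's window and in 1.85% of all windows. The 10 members have 15 windows in that table, the search covered both strands, and a match is a description of letters. The DBP window holds none of these letters.

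The libraries held 19.45 to 30.87 M counts (median 26.05 M). DBP had the fewest counts of the 10 genes, 35 to 160 per library with a median of 117, then BMAL1 with 122 to 260, while CLOCK had 22125 to 42591. The sample codes begin with A1 for the vehicle libraries, with 1 for the drugs and with 2, 3 or 4 for the extracts, 2 extracts each. This first part is read here as a sample set. The labels do not say what it stands for, and the titles of all 60 libraries say BatchA. On that reading the set and the treatment cannot be told apart in any comparison with vehicle. The 3 doses of an extract share a set, and so do the 3 drugs. By a limit set after the values were seen, 5 libraries were marked as standing apart, at most 1 per group. They were angelica low 2, licorice medium 3, and the first replicates of peony high, ginseng low and atractylodes high. In angelica low and peony high, groups of 2, the library marked was the one farther from the extract's other doses. Of 10 astroglial markers, 5 reached a median of 1 CPM (VIM, CD44, SOX9, SLC1A3 and NES). The defining astrocyte markers GFAP, S100B, AQP4 and ALDH1L1 had medians of 0.0681, 0.0795, 0 and 0 CPM. The summed astroglial markers, mostly VIM and CD44 (means of 6017 and 2746 CPM in vehicle), were lowest after thioridazine. The sum was 6461 CPM there, against 8642 to 9035 CPM in the vehicle libraries, and the part of this in the results was not tested. The epithelial sum, mostly KRT18, was also lowest there (79.2 CPM, against 239 to 248 CPM), its part in the results was not tested either, and EPCAM and CDH1 had medians of 0.0378 and 0 CPM. Group means of the summed neuronal markers ran from 112 to 220 CPM, oligodendroglial from 5.52 to 10.5, blood from 138 to 235 and endothelial from 0.695 to 2.12.

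Levels are given as CPM, each count scaled by the normalised total of its library, and levels of different genes are compared only per kilobase of exon. Over all 60 libraries the mean level per kilobase was 113 CPM for CLOCK, 25.4 for NR1D1, 18 for NR1D2, 5.57 for PER3, 5.17 for CRY1, 5.1 for PER1, 2.16 for CRY2, 1.9 for PER2, 1.09 for BMAL1 and 0.679 for DBP. In such bulk libraries, fewer cells with an RNA and less of it per cell cannot be told apart. CLOCK stood far above its partner BMAL1, and DBP was the lowest. The median over tested protein-coding genes was 4.7 CPM per kilobase, so PER3, CRY1 and PER1 were near it. CLOCK was at a median of 116 CPM per kilobase, a level reached by 1.91% of 14000 tested coding genes.

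The genes next to CLOCK on chromosome 4 were looked at after its level was seen. TMEM165, which overlaps the 3′ end of CLOCK on the other strand, was at 125 CPM per kilobase, and SRD5A3 beyond it at 33. On the other side of CLOCK came NMU at 24.3 and then EXOC1, an exocyst subunit, at 101. Farther along, the purine synthesis genes PPAT and PAICS were at 85.2 and 396 CPM per kilobase, SRP72, a signal recognition particle subunit, at 400, and POLR2B, an RNA polymerase II subunit, at 285. The 21 tested coding genes within 1500000 bases of either end of CLOCK had a median of 31 CPM per kilobase. The receptor genes PDGFRA, KIT and KDR in the same stretch were at 2.38, 8.5 and 4.6, and CRACD at 0.395. Neighbours of the other 9 members had medians of 4.43 (DBP) to 11.4 (BMAL1) CPM per kilobase.

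**Figure D1:**
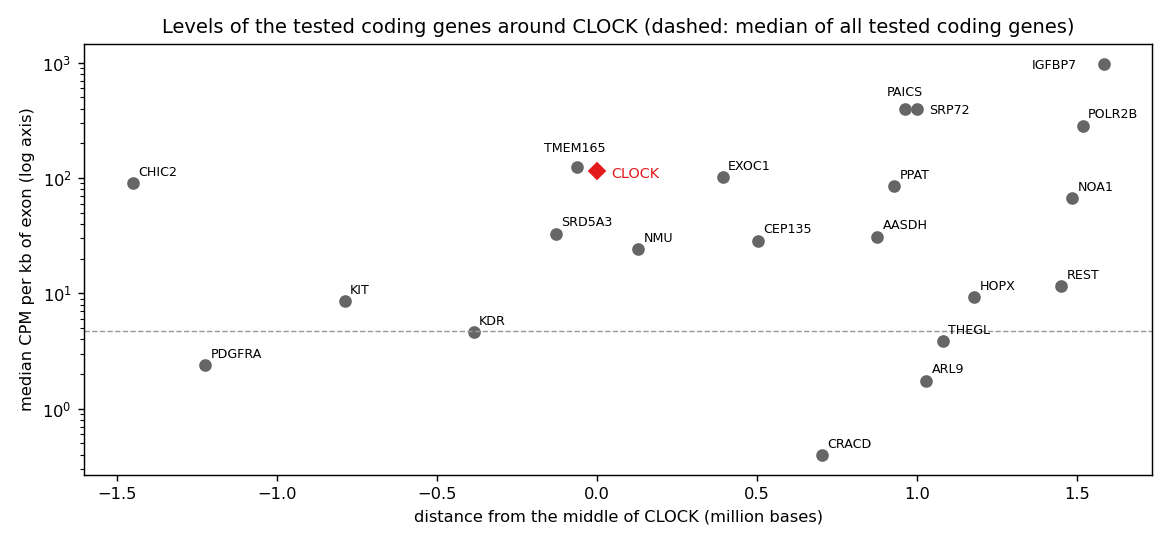
Median CPM per kilobase of exon over the 60 libraries (log axis) for CLOCK (diamond) and the tested protein-coding genes around it, against distance from the middle of CLOCK in megabases (Mb). CLOCK is at 116, TMEM165 at 125 and PAICS at 396, while PDGFRA at 2.38 lies under the dashed median of all tested coding genes at 4.7.

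Each of the 10 genes differed somewhere among the 22 groups by edgeR's joint quasi-likelihood test (adjusted p from 2.07e-19 for NR1D2 to 0.000176 for CRY2). The same test passed for 71.7% of all genes, so 10 of 10 is not far above the background. The genes differed in how far they moved. DBP had the widest range of group means, 1.59 on the log2 scale, with a spread within groups of 0.17 (SD). PER2 followed with a range of 1.07 and a spread of 0.13, and NR1D1 and CRY1 with ranges of 0.68 and 0.61. PER3 had the narrowest range, 0.45. Among the 18 extract groups alone, CRY1 spanned 0.14, CLOCK 0.21 and DBP 1.59.

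**Figure D2:**
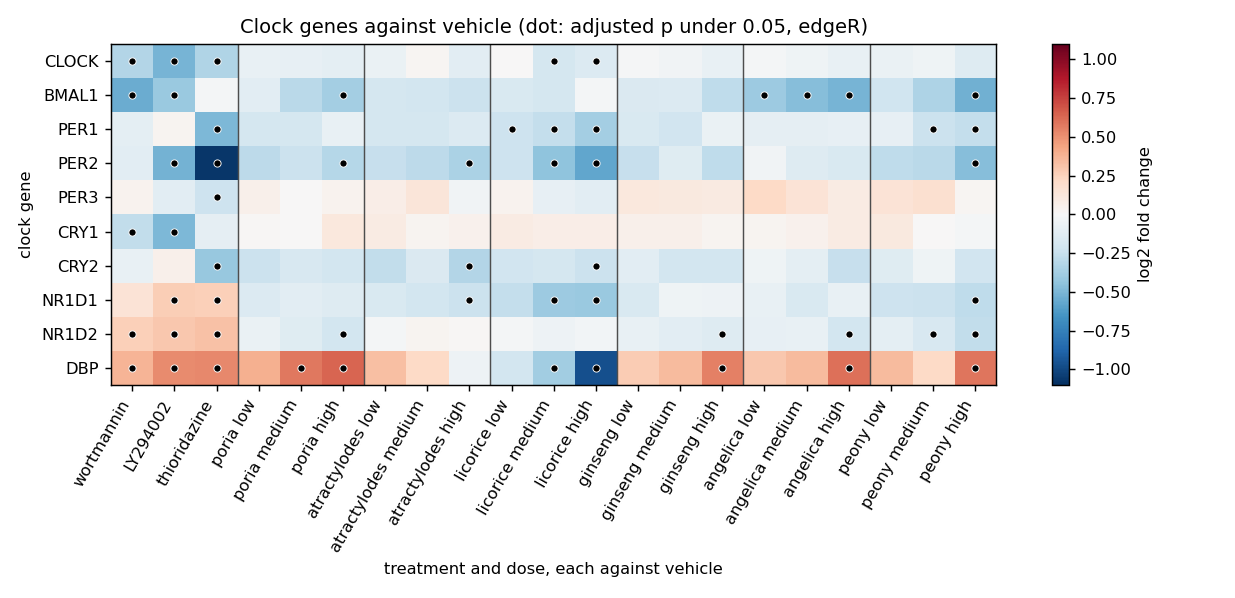
Log2 fold change of each clock gene (rows) in each of the 21 treatment groups against vehicle (columns), with dots where edgeR's adjusted p was under 0.05. PER2 after thioridazine (-1.07) and DBP after the high dose of licorice (-0.97) are the darkest blue cells, and DBP after the high dose of poria (0.64) is the darkest red one.

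Wortmannin changed 5 of 10 genes (31.7% of all genes called), LY294002 changed 7 of 10 (39.3% of all genes) and thioridazine changed 8 of 10 (48.4% of all genes). After each drug CLOCK fell, and NR1D2 and DBP rose. Beyond these, the falls after both PI3-kinase inhibitors were in BMAL1 and CRY1, while those after thioridazine were in PER1, PER2, PER3 and CRY2. The median log2 change of the 10 genes was -0.09, -0.05 and -0.17 for wortmannin, LY294002 and thioridazine, beside 0.02 for all genes tested in each case. All comparisons with vehicle use the same 3 vehicle libraries.

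Among the activators, BMAL1 was at 8.61, 9.21 and 8.22 CPM in the vehicle libraries and at 5.72, 6.45 and 5.62 CPM after wortmannin. Every wortmannin library was below every vehicle library, and BMAL1 fell by 0.55 ± 0.10 (SE) on the log2 scale (adjusted p = 7.94e-06, edgeR). After LY294002 it was at 5.1, 6.96 and 7.48 CPM, again below vehicle with no overlap, a log2 change of -0.41 ± 0.10 (adjusted p = 0.00047). After thioridazine BMAL1 was at 7.95, 8.98 and 8.84 CPM, within the vehicle range at 2 of 3 libraries, with a log2 change of -0.02 (95% interval -0.20 to 0.17). CLOCK, its partner, was at 1452, 1400 and 1451 CPM in vehicle. It fell to 1178, 1142 and 1137 CPM after wortmannin, to 1138, 950 and 923 after LY294002 and to 1136, 1117 and 1160 after thioridazine, with log2 changes of -0.32, -0.51 and -0.33, each ± 0.06 (SE). None of the 9 drug libraries reached the lowest vehicle library for CLOCK.

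PER2, a repressor of the BMAL1 and CLOCK pair, showed the largest drug effect of the set. It was at 16.4, 16.3 and 15.5 CPM in vehicle and at 8.78, 7.52 and 6.61 CPM after thioridazine, a 2.10-fold lower level (log2 change -1.07 ± 0.10 SE, adjusted p = 2.45e-13, edgeR). LY294002 gave 12.5, 11.1 and 10.2 CPM (log2 change -0.52, adjusted p = 1.79e-05). Both groups lay wholly below vehicle, and thioridazine wholly below LY294002. After wortmannin PER2 was at 13.9, 15.8 and 14.6 CPM, overlapping vehicle, and its log2 change of -0.12 did not pass (95% interval -0.31 to 0.06).

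PER1, whose gene responds quickly to hormones and cAMP, was at 41.3, 39.3 and 39.7 CPM in vehicle and fell after thioridazine to 29.2, 25.9 and 30.6 CPM (log2 change -0.49 ± 0.06 SE, adjusted p = 8.82e-10). After wortmannin it was at 37.4, 36.7 and 37.8 CPM, also below every vehicle library, and did not pass (-0.11, adjusted p = 0.173), except with these groups fitted alone (-0.11, adjusted p = 0.0302). PER3, the third PER gene, fell from a mean of 44.0 ± 0.797 (SD, n = 3) to 37.4 ± 1.36 CPM after thioridazine (adjusted p = 0.00541). CRY2, a repressor that partners with PER proteins, fell there from 15.0, 14.7 and 15.5 CPM to 12.2, 11.4 and 10.3 CPM (log2 change -0.42, adjusted p = 9.16e-06). The other cryptochrome, CRY1, went with the kinase inhibitors instead. It was at 26.0, 26.0 and 26.2 CPM in vehicle, fell to 20.7, 21.7 and 22.4 CPM after wortmannin (log2 change -0.27, adjusted p = 0.000477) and to 19, 17.6 and 19.1 CPM after LY294002 (log2 change -0.49, adjusted p = 1.2e-08), and was at 25.8, 21.8 and 25.1 CPM after thioridazine (adjusted p = 0.172).

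The nuclear receptors rose. NR1D2 was at 105, 107 and 107 CPM in vehicle and at 120 to 131 CPM after wortmannin, 127 to 135 after LY294002 and 132 to 133 after thioridazine, so no drug library overlapped vehicle (log2 changes 0.26, 0.30 and 0.32, each ± 0.04 SE). NR1D1 rose after LY294002 (90.1, 99.5 and 85.8 CPM, against 77.9, 72.2 and 77.7 in vehicle, adjusted p = 0.00472) and after thioridazine (88.5, 93.1 and 90.8 CPM, adjusted p = 0.00557). After wortmannin NR1D1 was at 85.7, 84.9 and 82.2 CPM, above every vehicle library, and did not pass (0.15, adjusted p = 0.15). It passed with these groups fitted alone (0.15, adjusted p = 0.0011) and without the libraries that stood apart (0.16, adjusted p = 0.01). THRA, which shares 263 exon bases with NR1D1 on the other strand, had log2 changes of 0.14, 0.14 and 0.17 after the 3 drugs, the last passing. Whether the authors counted by strand is not stated, and the share of THRA reads in NR1D1 was not tested.

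DBP, an output factor of the clock, was at 3.46, 3.93 and 3.56 CPM in vehicle. It was at 4.47, 4.81 and 4.87 CPM after wortmannin, at 5.44, 4.98 and 5.33 after LY294002 and at 4.94, 5.64 and 5.3 after thioridazine. All 9 drug libraries exceeded all 3 vehicle libraries, with rises of 1.29-fold (adjusted p = 0.0287), 1.44-fold (adjusted p = 0.00125) and 1.45-fold (adjusted p = 0.000621, edgeR). The call for wortmannin was lost when vehicle replicate 1 (log2 0.34, adjusted p = 0.0959), vehicle replicate 3 (0.36, adjusted p = 0.0708), wortmannin replicate 2 (0.36, adjusted p = 0.0691) or wortmannin replicate 3 (0.35, adjusted p = 0.0783) was left out. SPHK2, which shares 661 exon bases with DBP on the other strand, had log2 changes of 0.02, -0.03 and 0.19 after the 3 drugs.

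**Figure D3:**
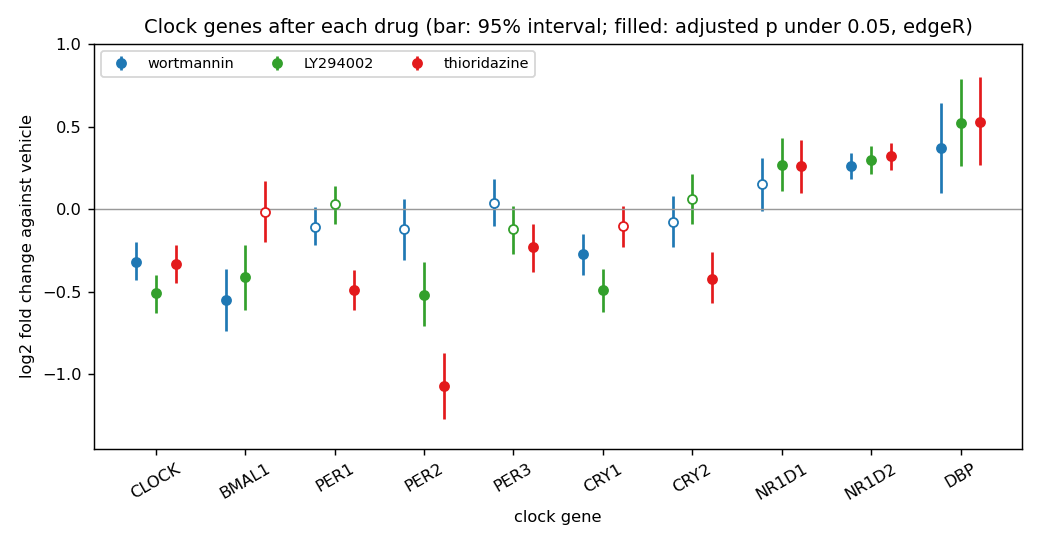
Log2 fold change against vehicle for each clock gene after wortmannin, LY294002 and thioridazine (points, with 95% intervals; filled where edgeR's adjusted p was under 0.05). Wortmannin and LY294002 points lie below 0 for BMAL1 and CRY1, thioridazine points lie below 0 for PER1, PER2, PER3 and CRY2, and the NR1D2 and DBP points of all 3 drugs lie above 0.

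The 3 drugs share a sample set, so the comparisons between them are free of the set of the vehicle. Wortmannin and LY294002, which differ in structure and both inhibit PI3-kinase, differed at the same labelled dose and time for 3 of 10 genes (16.4% of all genes called). How far each inhibited the kinase was not measured here. PER2 was higher after wortmannin by 0.39 (95% interval 0.20 to 0.59, adjusted p = 0.00312), CRY1 by 0.22 (0.08 to 0.35, adjusted p = 0.0165) and CLOCK by 0.20 (0.09 to 0.31, adjusted p = 0.00865) on the log2 scale. For CLOCK the libraries of both drugs overlapped, and its call was lost without LY294002 replicate 2 (0.16, adjusted p = 0.0845) or replicate 3 (0.14, adjusted p = 0.119). The groups alone lost that call too (0.20, adjusted p = 0.0783, edgeR). For CRY1 it was lost without LY294002 replicate 2 (0.18, adjusted p = 0.108) or wortmannin replicate 3 (0.19, adjusted p = 0.0765). The interval for DBP was -0.41 to 0.11 and that for NR1D1 -0.28 to 0.04, neither passing. Without LY294002 replicate 1, BMAL1 and PER3 also passed (-0.29, adjusted p = 0.045, and 0.22, adjusted p = 0.0467, edgeR). That makes 5 genes, a count without the share of all genes beside it.

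Thioridazine differed from LY294002 for 6 of 10 genes (40% of all genes) and from wortmannin for 6 of 10 (38.7% of all genes). In both contrasts PER1, PER2 and CRY2 were lower after thioridazine, and BMAL1 and CRY1 were higher. PER3 was also lower than after wortmannin (-0.27, adjusted p = 0.00169). PER2 was lower by 0.55 than after LY294002 and by 0.95 than after wortmannin on the log2 scale (adjusted p = 2.31e-05 and 3.04e-11, edgeR). BMAL1 was higher by 0.39 and 0.53 (adjusted p = 0.000766 and 9.7e-06). CLOCK was higher after thioridazine than after LY294002 (0.18), a call lost without LY294002 replicate 2 (0.15, adjusted p = 0.054) or 3 (0.13, adjusted p = 0.0831). CRY1 was higher than after wortmannin by 0.17, a call lost without wortmannin replicate 1 (0.15, adjusted p = 0.102) or thioridazine replicate 1 (0.12, adjusted p = 0.175) or 3 (0.15, adjusted p = 0.107), and its library ranges overlapped. With no filter that CRY1 call was lost too (0.17, adjusted p = 0.121, edgeR).

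The high doses of the extracts changed between 2 and 6 of the genes. Against vehicle, 4 of 10 were called for poria (11.6% of all genes), 3 for atractylodes (13.9%), 6 for licorice (30.9%), 2 for ginseng (7.25%), 3 for angelica (6.46%) and 6 for peony (20.7%). DBP separated the extracts: it rose after poria, ginseng, angelica and peony, fell after licorice, and was not called after atractylodes. The other calls were all falls, and PER3 and CRY1 were called after none of the 6. Leaving out 1 library added CRY2 for poria (without poria high replicate 2, -0.26, adjusted p = 0.0452) and PER1 for atractylodes (without atractylodes high replicate 2, -0.23, adjusted p = 0.0103). The median log2 change of the 10 genes was between -0.08 (ginseng) and -0.23 (peony), beside 0.01 to 0.02 for all genes tested.

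DBP after the high dose of licorice was at 2.2, 1.52 and 1.84 CPM, below every other library, the nearest being replicate 2 of licorice medium at 2.21 CPM. Against vehicle this was 1.96-fold lower (log2 change -0.97 ± 0.16 SE, adjusted p = 1.79e-06, edgeR). After the high dose of poria DBP was at 6.02, 5.34 and 5.7 CPM (1.56-fold higher, adjusted p = 0.000523), after peony at 5.5 and 5.51 (1.51-fold, adjusted p = 0.00269), after angelica at 5.3 and 5.84 (1.52-fold, adjusted p = 0.00582) and after ginseng at 4.89, 5.28 and 5.81 (1.46-fold, adjusted p = 0.00573). In these 4 extracts every high-dose library exceeded every vehicle library. So did every library of their low doses, where no DBP call was made. There the log2 changes were 0.39 for poria, 0.28 for ginseng, 0.30 for angelica and 0.35 for peony. The calls for ginseng and angelica were lost without replicate 3 of ginseng high (0.48, adjusted p = 0.0533) and without replicate 2 of angelica high (0.53, adjusted p = 0.171). After atractylodes DBP was at 2.89, 3.72 and 3.92 CPM, overlapping vehicle. SPHK2 on the other strand had log2 changes of 0.00 after licorice and -0.16 after poria, neither passing.

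**Figure D4:**
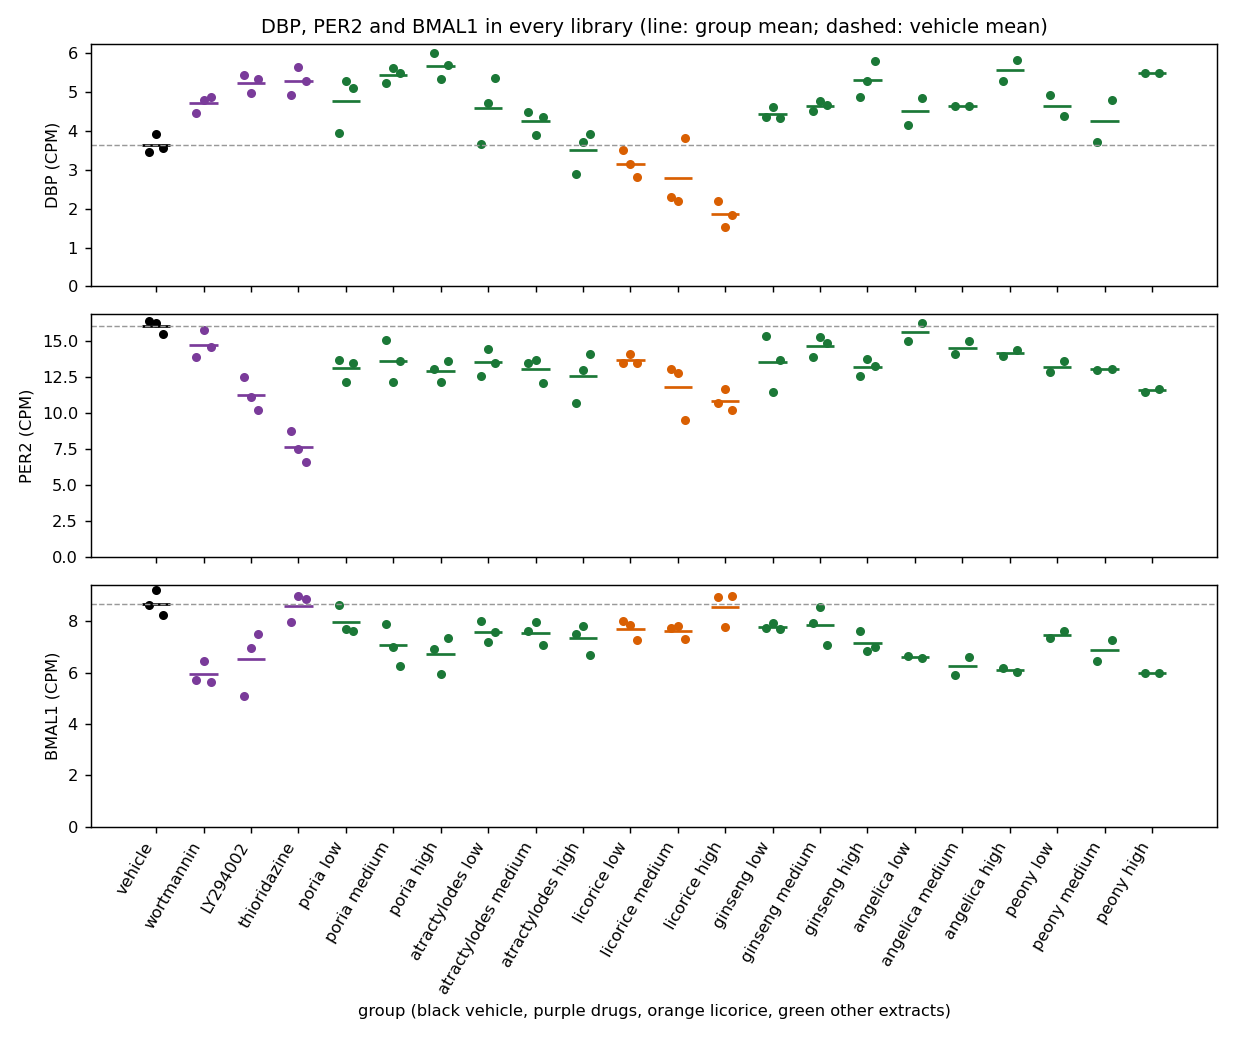
CPM of DBP, PER2 and BMAL1 in each of the 60 libraries by group (points; bars are group means, the dashed line the vehicle mean). DBP is at 1.52 to 2.2 CPM after the high dose of licorice and at 5.3 CPM or higher in each poria, angelica and peony library of the high dose, PER2 is lowest after thioridazine (6.61 to 8.78 CPM), and BMAL1 is lowest after wortmannin and the high doses of angelica and peony.

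BMAL1 fell after the high doses of poria, angelica and peony. After ginseng high it was at 7.61, 6.83 and 6.98 CPM, below every vehicle library, and did not pass (-0.28, adjusted p = 0.0538), though it did in 4 alternatives (RLE size factors, the groups alone, DESeq2 and without the libraries that stood apart, adjusted p = 0.0471, 0.0198, 0.0387 and 0.0448). It was at 6.9, 5.94 and 7.33 CPM after poria high (log2 change -0.37, adjusted p = 0.00685), at 6.17 and 6.03 after angelica (-0.51, adjusted p = 0.00192) and at 5.98 and 6.0 after peony (-0.53, adjusted p = 0.000334), all below the lowest vehicle library at 8.22. The poria call was lost without replicate 2 of poria high (-0.29, adjusted p = 0.0872) and the angelica call without replicate 2 of angelica high (-0.50, adjusted p = 0.0614). After licorice BMAL1 was at 8.95, 7.75 and 8.97 CPM, inside or beside the vehicle range (log2 change -0.02). CLOCK fell by 0.15 after licorice (1277, 1324 and 1266 CPM, adjusted p = 0.0286). That call was lost without vehicle replicate 1 (-0.14, adjusted p = 0.0949) or 3 (-0.14, adjusted p = 0.0939), or licorice high replicate 1 (-0.14, adjusted p = 0.0773) or 3 (-0.14, adjusted p = 0.0971).

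PER2 fell after 4 of the 6 high doses. After licorice it was at 10.7, 11.7 and 10.2 CPM (log2 change -0.57 ± 0.10 SE, adjusted p = 4.98e-06), after peony at 11.5 and 11.7 (-0.47, adjusted p = 0.0013), after atractylodes at 10.7, 13.0 and 14.1 (-0.35, adjusted p = 0.0087) and after poria at 13.1, 12.2 and 13.6 (-0.31, adjusted p = 0.0241). Each of these libraries was below the lowest vehicle library at 15.5. The atractylodes call was lost without replicate 1 of that group, one of the libraries that stood apart (-0.24, adjusted p = 0.167, edgeR), and with the groups alone (-0.35, adjusted p = 0.0795). After ginseng high PER2 was at 12.6, 13.8 and 13.3 CPM, also below every vehicle library, and did not pass (-0.28, adjusted p = 0.058), though it did in 5 alternatives (RLE size factors, no filter, the groups alone, DESeq2 and without the libraries that stood apart, adjusted p = 0.0498, 0.0384, 0.00279, 0.0311 and 0.0102). The poria call was lost without vehicle replicate 1 (-0.29, adjusted p = 0.0832) or 2 (-0.30, adjusted p = 0.0698), or poria high replicate 1 (-0.31, adjusted p = 0.0569) or 2 (-0.27, adjusted p = 0.126).

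PER1 fell after licorice to 32.4, 29.6 and 30.9 CPM (log2 change -0.37 ± 0.06 SE, adjusted p = 1.68e-06) and after peony to 35.5 and 31.8 CPM (-0.26, adjusted p = 0.00403), the latter lost without peony high replicate 2 (-0.20, adjusted p = 0.0702). CRY2 fell after atractylodes (11.9, 11.6 and 12.7 CPM, -0.32, adjusted p = 0.00287) and after licorice (13.7, 12.7 and 12.1 CPM, -0.24, adjusted p = 0.0149). The licorice call for CRY2 was lost without vehicle replicate 3 (-0.21, adjusted p = 0.0672) or licorice high replicate 3 (-0.19, adjusted p = 0.102), and with no filter on low counts (-0.23, adjusted p = 0.0619).

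NR1D1 fell after licorice to 58.9, 57.2 and 55.4 CPM (log2 change -0.41 ± 0.08 SE, adjusted p = 8.32e-05), and THRA on the other strand fell there too, by 0.28 (37.5 against 45.5 CPM, adjusted p = 0.000286). After peony NR1D1 was at 57.4 and 67.1 CPM (-0.28, adjusted p = 0.022), a call lost without replicate 1, which stood apart (-0.18, adjusted p = 0.407), or vehicle replicate 1 (-0.26, adjusted p = 0.0635) or 3 (-0.27, adjusted p = 0.0586). After atractylodes it was at 55.3, 65.4 and 72.2 CPM, overlapping vehicle (-0.24, adjusted p = 0.0381). That call was lost without replicate 1 of the group, which stood apart (-0.14, adjusted p = 0.404), replicate 2 (-0.25, adjusted p = 0.0578), or vehicle replicate 1 (-0.22, adjusted p = 0.132) or 3 (-0.22, adjusted p = 0.125). The groups alone lost it too (-0.24, adjusted p = 0.154, edgeR).

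NR1D2, the member with the smallest spread within groups (0.05, SD of log2 values), fell after poria to 93.1, 91.5 and 92.9 CPM (log2 change -0.20 ± 0.04 SE, adjusted p = 0.000628), after peony to 89.2 and 86.5 (-0.27, adjusted p = 2.1e-05), after angelica to 91.9 and 92.7 (-0.20, adjusted p = 0.00416) and after ginseng to 96.3, 98.9 and 94.4 (-0.14, adjusted p = 0.0322). All these libraries lay below the vehicle libraries at 105 to 107 CPM. The ginseng call was lost in 6 of 12 alternatives, at adjusted p of up to 0.166, among them leaving out any vehicle library (-0.15, -0.13 and -0.13; adjusted p = 0.0667, 0.0904 and 0.0974) or ginseng high replicate 1 (-0.13, adjusted p = 0.085) or 3 (-0.12, adjusted p = 0.145). The angelica call was lost without either angelica library (-0.20, adjusted p = 0.069, and -0.21, adjusted p = 0.0618). NR1D1 and NR1D2 thus went up together after LY294002 and thioridazine, while licorice lowered NR1D1 with NR1D2 at 100, 107 and 104 CPM.

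At the medium dose 9 calls were made over the 6 extracts: 1 for poria (1.47% of all genes), 5 for licorice (25.2%), 1 for angelica (2.91%) and 2 for peony (2.55%), with none for atractylodes (1.06%) or ginseng (0.569%). At an unadjusted p under 0.05 by edgeR there were 5 genes for atractylodes and 4 for ginseng, and DESeq2 called 14 over the 6 extracts. Counts at an unadjusted p, by DESeq2 and in the other alternatives, here and below, stand without the share of all genes. They are therefore not read as a result about the clock genes. DBP rose after poria medium to 5.23, 5.63 and 5.5 CPM (1.49-fold, adjusted p = 0.0102). That call was lost without vehicle replicate 1 (0.54, adjusted p = 0.0873) or 3 (0.56, adjusted p = 0.058) or poria medium replicate 2 (0.56, adjusted p = 0.0594). BMAL1 fell after angelica medium to 5.91 and 6.61 CPM (-0.47, adjusted p = 0.0088), lost without its replicate 1 (-0.40, adjusted p = 0.219).

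Licorice medium lowered PER1, PER2, NR1D1, DBP and CLOCK, all of which also fell at the high dose. PER2 was at 13.1, 12.8 and 9.54 CPM, NR1D1 at 62.1, 58.3 and 52.6 and PER1 at 35.9, 33 and 31.4, with log2 changes of -0.44, -0.40 and -0.26. These 3 calls were kept under every alternative. DBP was at 2.31, 2.21 and 3.82 CPM, the last from the library that stood apart and inside the vehicle range. Its log2 change was -0.38 (adjusted p = 0.044) with all libraries and -0.69 (adjusted p = 0.000716) without the 5 libraries that stood apart. The CLOCK call (-0.19, adjusted p = 0.00998, edgeR) was lost without that same library (-0.09, adjusted p = 0.291) and with the groups alone (-0.18, adjusted p = 0.158). The DBP call was lost by edgeR with no filter (-0.38, adjusted p = 0.0871) and with the groups alone (-0.38, adjusted p = 0.216). It was also lost when any vehicle library was left out (-0.42, -0.32 and -0.40, adjusted p = 0.0628, 0.157 and 0.0808). The same held when licorice medium replicate 1 or 2 was left out (-0.25 each, adjusted p = 0.26 and 0.255). CRY2 was added without either of those licorice libraries (-0.23 each, adjusted p = 0.0409 and 0.0411).

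Peony medium lowered PER1 (33.5 and 34.5 CPM, adjusted p = 0.0353, edgeR) and NR1D2 (92.8 and 94.2 CPM, adjusted p = 0.0177), the latter lost with no filter (-0.19, adjusted p = 0.081). Both calls were lost without either peony library (PER1 -0.22 and -0.27, adjusted p = 0.324 and 0.173; NR1D2 -0.17 and -0.20, adjusted p = 0.229 and 0.12), and PER1 without any vehicle library (-0.22, -0.26 and -0.25; adjusted p = 0.132, 0.0531 and 0.0608). At the low dose 2 calls were made, PER1 after licorice (1 gene, 3.29% of all genes; 32.5, 35.5 and 34.9 CPM, -0.23, adjusted p = 0.0184) and BMAL1 after angelica (1 gene, 1.75%; 6.65 and 6.55 CPM, -0.40, adjusted p = 0.0364). The PER1 call was lost without vehicle replicate 1 (-0.21, adjusted p = 0.104) or licorice low replicate 1 (-0.19, adjusted p = 0.117) or 3 (-0.24, adjusted p = 0.0633). The BMAL1 call was lost without vehicle replicate 1 (-0.40, adjusted p = 0.102, edgeR) or 2 (-0.35, adjusted p = 0.168). It was also lost with no filter (-0.39, adjusted p = 0.096) and with the groups alone (-0.39, adjusted p = 0.12). Without angelica low replicate 1 or 2, which leaves 1 library in that group, the log2 change was -0.41 or -0.39, and neither fit kept the call. Nor was it kept without the libraries that stood apart (-0.39). No gene was called at the low dose of poria (0.419% of all genes), atractylodes (0.804%), ginseng (0.592%) or peony (5.23%), with 4, 6, 4 and 5 genes at an unadjusted p under 0.05 by edgeR. DESeq2 called 6 over the 6 low doses. Leaving out 1 library added a call for NR1D1 after ginseng low, where replicate 1 stood apart (-0.32, adjusted p = 0.0142 without it).

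Vehicle had the highest mean of all groups for PER2 and BMAL1. PER2 and BMAL1 were below vehicle in all 21 treatment groups, and PER1, CRY2, NR1D1, PER2 and BMAL1 were below it in all 18 extract groups. These comparisons reuse the same 3 vehicle libraries, so they are not separate results. The share of all genes that lay to the same side throughout was not counted. The smallest log2 changes among the extract groups were -0.02 for BMAL1, -0.04 for PER2, -0.05 for CRY2 and NR1D1, and -0.07 for PER1. DBP was above vehicle in 14 of the 18 extract groups and below it in 4. The mean of the 6 low doses, 16 libraries, passed against vehicle for PER1 alone (35.7 against 40.1 CPM, log2 change -0.16 ± 0.04 SE, adjusted p = 0.0229; 1 gene called, 5.35% of all genes), lost without any vehicle library (-0.14, -0.18 and -0.17; adjusted p = 0.212, 0.0613 and 0.0778). Another 7 of the 10 had an unadjusted p under 0.05 by edgeR, again without the share of all genes beside it. DESeq2 called 5, and leaving out the 5 libraries that stood apart gave 4. Whether the differences from vehicle at 20 µg/mL go with the extracts, with the sample sets or with the DMSO of the vehicle cannot be told apart.

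Within an extract all doses share a set, so the high dose against the low dose is free of the vehicle libraries. Licorice changed 3 of 10 genes between these doses (18.2% of all genes). DBP fell from 3.52, 3.15 and 2.82 CPM at the low dose to 2.2, 1.52 and 1.84 CPM at the high dose, with no overlap (1.71-fold lower, log2 change -0.77 ± 0.16 SE, adjusted p = 0.000261, edgeR), a call kept under every alternative. PER2 fell from 13.5, 14.1 and 13.5 to 10.7, 11.7 and 10.2 CPM (-0.34, adjusted p = 0.0101), lost without licorice high replicate 3 (-0.29, adjusted p = 0.0725). CLOCK fell by 0.15 (adjusted p = 0.0435), lost without licorice high replicate 1 (-0.14, adjusted p = 0.125) or 3 (-0.14, adjusted p = 0.136) or licorice low replicate 1 (-0.17, adjusted p = 0.0644), 2 (-0.14, adjusted p = 0.127) or 3 (-0.15, adjusted p = 0.113).

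Peony changed 1 gene between high and low dose (5.9% of all genes), NR1D2, from 94.0 and 103 to 89.2 and 86.5 CPM (-0.16, adjusted p = 0.047). That call was lost by edgeR with RLE size factors (-0.16, adjusted p = 0.0569), no filter (-0.18, adjusted p = 0.137) and the groups alone (-0.15, adjusted p = 0.164). Without peony high replicate 1 or 2 or peony low replicate 2, the log2 change was -0.18, -0.15 or -0.10. Each of these fits leaves 1 library in a group, and none kept the call. Nor was it kept without the libraries that stood apart (-0.18). No gene was called for poria (5.51% of all genes), atractylodes (4.1%), ginseng (0.653%) or angelica (0.943%), with 2, 1, 1 and 2 genes at an unadjusted p under 0.05 by edgeR. DESeq2 called 1 gene for poria and none for the other 3. DBP had log2 changes of 0.25 for poria, 0.27 for ginseng, 0.30 for angelica and 0.24 for peony (intervals -0.00 to 0.51, 0.01 to 0.53, -0.01 to 0.62 and -0.08 to 0.56), none passing, and of -0.38 for atractylodes (interval -0.66 to -0.10, adjusted p = 0.13). That last one passed without atractylodes low replicate 1 (-0.52, adjusted p = 0.0271). Between the medium and low doses only CLOCK after licorice passed (1 gene, 8.66% of all genes; -0.19, adjusted p = 0.0274). That call was lost without licorice medium replicate 3, which stood apart (-0.09, adjusted p = 0.513), or licorice low replicate 2 (-0.18, adjusted p = 0.0959) or 3 (-0.18, adjusted p = 0.0874). The groups alone lost it too (-0.19, adjusted p = 0.297, edgeR). No clock gene passed between these doses for poria (0.0502% of all genes), atractylodes (0.24%), ginseng (0.00558%), angelica (0%) or peony (0.156%), where PER1 after peony alone had an unadjusted p under 0.05 by edgeR, and DESeq2 called 1 over the 6 extracts.

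Whether the change from low to high dose differed between the 6 extracts was tested directly by a joint edgeR test. DBP alone passed (adjusted p = 9.65e-05; 1 of 10 genes, 16.2% of all genes), while DESeq2, and edgeR without the libraries that stood apart, each called 3. It passed in all 38 alternatives, with adjusted p between 1.81e-06 and 0.000932. PER1 was near the threshold (adjusted p = 0.0519) and passed in 12 of the 38. BMAL1 (adjusted p = 0.147), NR1D2 (0.122) and PER2 (0.452) did not pass, nor did the other 5, at adjusted p of 0.444 or more.

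**Figure D5:**
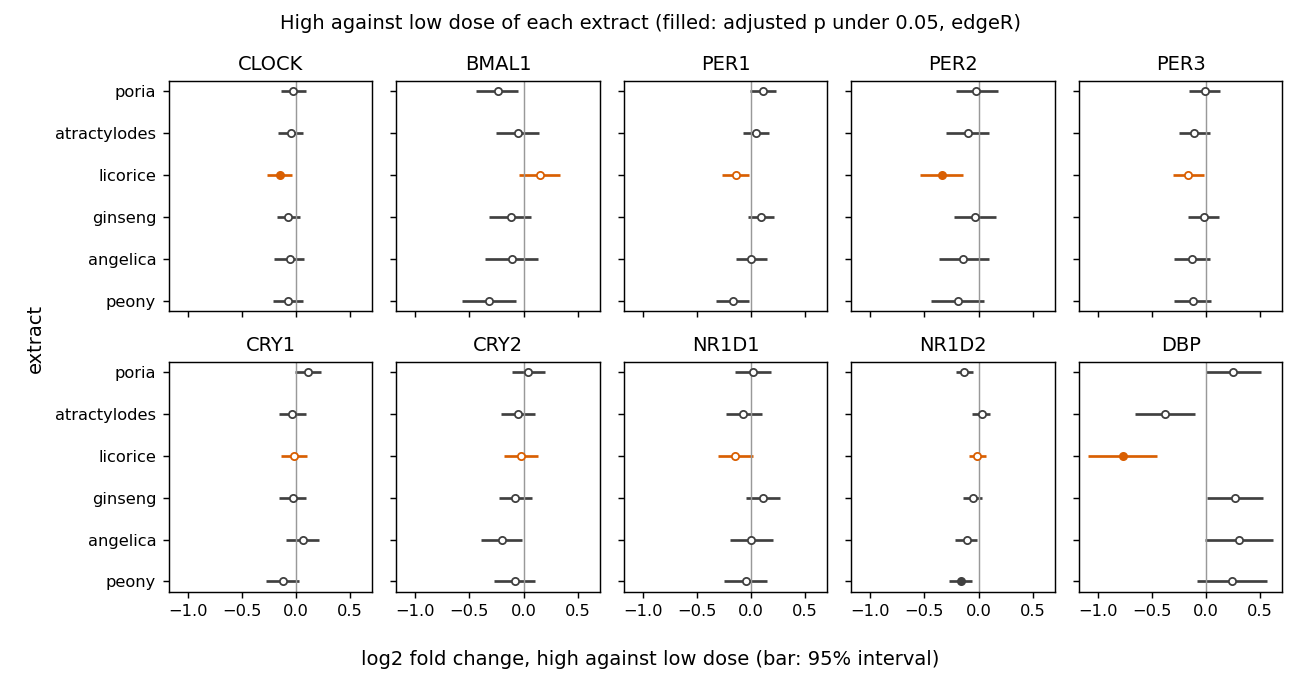
Log2 fold change of the high against the low dose (points, with 95% intervals; filled where edgeR's adjusted p was under 0.05) for each clock gene and extract. In the DBP panel licorice lies at -0.77 and atractylodes at -0.38, left of 0, while the other 4 extracts lie between 0.24 and 0.30.

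Other genes of the clock were taken from a list of 21, of which 19 were tested. Wortmannin changed 12 of 19 (7 rose, 5 fell; 31.7% of all genes called), LY294002 14 (8 rose, 6 fell; 39.3%) and thioridazine 13 (8 rose, 5 fell; 48.4%), with list medians of 0.07, 0.08 and 0.13 on the log2 scale beside 0.02 for all genes. NPAS2, a relative of CLOCK that can pair with BMAL1, rose after thioridazine from a mean of 10.0 to 27.0 CPM (log2 change 1.43, adjusted p = 6.32e-18) and, named for wortmannin after its value was seen, to 13.5 CPM there (0.43, adjusted p = 0.0011). BMAL2, a relative of BMAL1, fell after thioridazine from 40.4 to 28.3 CPM (-0.51, adjusted p = 2.07e-09). HLF, a D-box factor of the same family as DBP, fell there from 5.56 to 2.55 CPM (-1.12, adjusted p = 7.85e-12), the opposite direction from DBP. TIMELESS fell from 57.4 to 41.9 CPM after wortmannin (-0.45, adjusted p = 2.38e-11) and NFIL3, which binds D-boxes as a repressor, from 16.6 to 11.9 CPM (-0.48, adjusted p = 2.3e-06), while BHLHE41, an E-box repressor, rose by 0.22 (adjusted p = 0.000777). After LY294002 the smallest p-values were for BHLHE41 (58.1 against 46.0 CPM, 0.33, adjusted p = 5.64e-07), USP2 (2.66 against 4.87 CPM, -0.87, adjusted p = 5.94e-07) and WEE1 (31.6 against 25.0 CPM, 0.34, adjusted p = 1.67e-05).

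At the high doses the same list gave 3 of 19 for poria (11.6% of all genes called), 2 for atractylodes (13.9%), 12 for licorice (4 rose, 8 fell; 30.9%), 2 for ginseng (7.25%), 1 for angelica (6.46%) and 5 for peony (20.7%). Apart from licorice, these counts were near the share of all genes. The list medians were between -0.05 and 0.03, beside 0.01 to 0.02 for all genes. After licorice CSNK1D, a kinase that acts on PER proteins, fell from 202 to 168 CPM (-0.27, adjusted p = 2.2e-08), BHLHE41 fell from 46.0 to 37.4 CPM (-0.30, adjusted p = 1.18e-05) and BMAL2 rose from 40.4 to 51.6 CPM (0.35, adjusted p = 9.82e-06). HLF (3.93 against 5.56 CPM, -0.50) and TEF (35.1 against 40.0 CPM, -0.19), both relatives of DBP and named after their values were seen, fell there too. BHLHE41 also fell after poria (-0.33), angelica (-0.23) and peony (-0.60). RORB, a receptor that competes with NR1D1 and NR1D2 at the same sequence, rose after peony (2.48 against 0.998 CPM, adjusted p = 0.0014), the groups not overlapping.

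PER1 is also a known target of the glucocorticoid receptor and of the cAMP-responsive factor CREB, so a list of each was read beside it (PER1 and DUSP1 are on both). Of 9 tested glucocorticoid targets, 8 were called after thioridazine (3 rose, 5 fell, list median -0.49, 48.4% of all genes called). After licorice high 6 were called (1 rose, 5 fell, -0.26, 30.9%), after wortmannin 5 (31.7%) and after LY294002 4 (39.3%). The other high doses gave 4 for poria (11.6%), 2 for atractylodes (13.9%), 3 for ginseng (7.25%), 3 for angelica (6.46%) and 4 for peony (20.7%). The genes named next were picked after their values were seen. The targets did not move one way after thioridazine: TSC22D3 (1.36), KLF9 (0.98) and SGK1 (0.37) rose, and CRISPLD2 (-1.81), DUSP1 (-0.72) and FKBP5 (-0.57) fell, on the log2 scale. Of 11 CREB targets, 6 were called after thioridazine (48.4% of all genes called), 4 after wortmannin (31.7%), 4 after LY294002 (39.3%) and 4 after poria high (11.6%). The high doses of atractylodes (13.9%), ginseng (7.25%), angelica (6.46%) and peony (20.7%) gave 2 each. After licorice high 8 were called, 4 up and 4 down (30.9%). DUSP1, a phosphatase, rose from 30.7 to 65.0 CPM (1.08, adjusted p = 9.31e-13) and SIK1, a kinase, from 17.7 to 29.3 CPM (0.73, adjusted p = 1.23e-09), while PER1 fell. SIK1 fell after wortmannin (-1.12) and LY294002 (-0.80) and rose after thioridazine (1.06), so that PER1 and SIK1 went opposite ways after thioridazine and licorice.

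In the order of group means, DBP was highest in poria high, then angelica high and peony high, and lowest in licorice low, medium and high, with vehicle at place 18 of 22. Of the 21 pairs of neighbours in that order, 20 had overlapping libraries. PER2 was highest in vehicle and lowest in thioridazine, then licorice high and LY294002. BMAL1 was highest in vehicle, thioridazine and licorice high and lowest in wortmannin, then peony high and angelica high. CLOCK was lowest in LY294002, thioridazine and wortmannin, NR1D2 was highest in these 3 and lowest in peony high, and CRY1 was lowest in LY294002 and wortmannin and highest in poria high. For each gene at least 18 of the 21 neighbouring pairs overlapped, so most places in the order are not separated by the spread.

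Group means of some members went together. Over the 22 groups, which fall in 5 sample sets, Pearson's r was 0.85 between CRY1 and CLOCK, 0.76 between PER2 and PER3, 0.70 between PER1 and PER2, and -0.73 between CRY1 and both NR1D1 and NR1D2. Over the 18 extract groups with the mean of each set taken off, CRY1 and CLOCK had r = 0.06, PER3 and CLOCK 0.88, PER2 and NR1D1 0.83, and NR1D1 and DBP 0.80. BMAL1 and DBP were opposed in both (-0.51 and -0.54). These are descriptions over points that share a set.

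Among 11039 other genes whose mean reached 5 CPM, those most like DBP over the 22 groups were ARMC7 (r = 0.92), TBCK (0.92) and FNTB (0.91), and with set means taken off over the 18 extract groups MAT2A, SH3BP2 and VAV3 (0.97 each). For PER2 they were SMPD4 (0.95), FUBP1 (0.95) and ENPP1 (0.93), and with set means taken off RIN2 (0.93), CHST3 (0.92) and SSBP3 (0.92). For BMAL1 the likeness was lower, with CUTA at 0.83, OASL at 0.79 and ST13 at 0.78 over the 22 groups. For PER1 the closest gene within sets was WEE1 (0.93), itself on the list of other clock genes, and for CLOCK it was LNPEP (0.94).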

How the data were processed

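RNA of SW1783 cells was sequenced in 60 libraries. The authors deposited expected counts per gene (RSEM 1.3.3 after STAR 2.7.3a, Trim Galore 0.6.5 and FastQC 0.11.9, on GRCh38, per the submitters' processing notes). The annotation and the strand setting of the counting are not stated there. Of 279 columns, 219 were not used. Expected counts, 9.48% of them not whole (tolerance 1e-06), were rounded. Gene positions were taken from GENCODE 29 and promoter sequences from RefSeq. edgeR 4.0.16 (R 4.3.3) with TMM factors kept genes by its filter (minimum count 10, total 15) and fitted 1 robust quasi-likelihood model with a mean per group over all libraries, two-sided, with Benjamini-Hochberg adjustment over 17919 genes; called means an adjusted p under 0.05. In all, 37 contrasts and 2 joint tests were made. CPM uses the TMM-scaled totals, and intervals are 95%. The common biological coefficient of variation was 0.0507.

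The members and lists were chosen with earlier results of these data known. Every member is described; of the other lists, up to 3 called genes with the smallest p per comparison are named, with those picked after their values were seen marked as such. Alternatives were RLE size factors, no filter, a replicate block, the compared groups alone, DESeq2 1.42.0, each library left out and, added after seeing the data, the 5 libraries that stood apart left out. The limit was an SD of log2 CPM from the rest of the group above 0.14 (genes of at least 10 CPM) or 0.5 (all genes). Only 1 library was marked in a group past it. In groups of 3 it was the farthest from the others for genes of at least 10 CPM. In groups of 2, where both have the same SD, it was the one farther from the extract's other doses. Replicates of every group differed by more than sampling noise. Tested on simulated data with 17411 genes, the wortmannin comparison recovered 33, 44, 49 and 50 of 50 genes changed 1.25, 1.5, 2 and 4 times, and that of angelica high 31, 41, 47 and 50, with 13 and 8 unchanged genes called. The simulated counts had the same biological coefficient of variation for all genes, no libraries that stood apart and no sample sets. Genes with the lowest counts were not changed. The simulation therefore does not measure recovery or false calls in the real libraries.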

Additional observations from a re-analysis of the deposited data

Results flagged for a closer look

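The change of DBP from the low to the high dose differed between the 6 extracts by edgeR's joint test of that difference (adjusted p = 9.65e-05). DBP fell after licorice (log2 change -0.77) and had a log2 change of -0.38 after atractylodes, against 0.24 to 0.30 after the other 4 extracts, none of these passing on its own.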

How the results depend on the processing

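Of 76 calls of clock genes, 45 held under every alternative, and none reversed. Counts of clock genes called moved as follows. They stand without the share of all genes called in the same alternative, so they are not read as a result about the clock genes. With the compared groups fitted alone, poria high gave 7 in place of 4, atractylodes high 1 in place of 3, ginseng high 6 in place of 2, angelica high 5 in place of 3, the 6 medium doses 18 in place of 9, the 6 low doses 13 in place of 2 and the mean of the low doses 3 in place of 1; high against low gave 1 for poria (0 before), 5 for licorice (3) and 0 for peony (1), and medium against low gave 0 (1). Without the 5 libraries that stood apart, atractylodes high gave 1, ginseng high 4, the medium doses 18, the low doses 14, the mean of the low doses 4, the joint test 3, and high against low 1 for poria, 1 for ginseng and 0 for peony, with 0 for medium against low. DESeq2 gave 4 for ginseng high, 14 for the medium doses, 6 for the low doses, 5 for their mean, 1 for poria high against low and 3 for the joint test. RLE size factors gave 4 for ginseng high, 3 for the low doses, 2 for their mean and 0 for peony high against low. No filter gave 3 for the low doses, 3 for their mean and 0 for peony high against low.

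Leaving out 1 library at a time gave 1 to 3 for atractylodes high, 0 to 2 for ginseng high, 0 to 3 for angelica high, 4 to 6 for licorice high, 6 to 9 for the medium doses, 0 to 3 for the low doses, 0 to 3 for their mean, 0 to 1 for atractylodes high against low, 1 to 3 for licorice high against low, 0 to 1 for peony high against low, 0 to 1 for medium against low, 1 to 5 for wortmannin against LY294002 and 1 to 2 for the joint test. The cause was not tested.

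With replicate number as a block, the low doses gave 3 and their mean 3, the medium doses 11, and no call was lost while 7 were added. The numbers did not meet the rule for pairing: of 26 comparisons with 3 pairs, 0 had every correlation of same-numbered libraries over 0.1 (range -0.26 to 0.55), and in 3 every library correlated best with its own number. Within a sample set the median correlation was 0.097 for libraries of the same number (49.6% over 0.1) and -0.059 for those of different numbers (16.7% over 0.1).

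Genes called over the whole table moved by more than 1.5 times in some comparisons under each of the groups alone, no filter, DESeq2 and the block. With the groups alone they went from 2074 to 3583 for poria high, 2485 to 586 for atractylodes high, 1300 to 2975 for ginseng high, 1158 to 2952 for angelica high, 4519 to 2001 for licorice medium, 734 to 151 for atractylodes high against low, 1058 to 650 for peony high against low 1552 to 88 for licorice medium against low and 75 to 752 for poria low. In the same fits the low doses of atractylodes, licorice and peony went from 144 to 458, 589 to 2298 and 937 to 2628. Those of ginseng and angelica fell, from 106 to 60 and from 313 to 102. The medium doses of poria, atractylodes and ginseng went from 263 to 1107, 190 to 701 and 102 to 600. Those of angelica and peony went from 522 to 2219 and from 457 to 1868. With no filter, poria low went from 75 to 512 and ginseng medium from 102 to 312. DBP had 35 to 160 counts per library and BMAL1 122 to 260, the lowest of the 10 genes.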
